A study of Homo sapiens with 9 samples.

Results

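A set of 10 genes of the epithelial chemokine and interleukin-1 system were followed in A549 cells, an established human lung adenocarcinoma line, by RNA sequencing. They were chosen by symbol, with earlier results of these data known. The set holds the CXC chemokines CXCL1, CXCL2, CXCL3, CXCL5 and CXCL8, the CC chemokines CCL2 and CCL20, and the cytokines IL1A and IL1B. It also holds NFKBIA, which encodes the inhibitor that keeps NF-kB in the cytoplasm. All 10 were found among the 30599 gene symbols of the files, and 9 of them, all but IL1B, had enough signal to be among the 20771 genes tested. The 3 groups, of 3 libraries each, were compared 48 h after transfection: scrambled siRNA as the control, siCyclin K#1 and siCyclin K#2, which are different siRNAs against CCNK, the gene of Cyclin K. The labels give A549 as the only cell line, and all 3 groups went through transfection with an siRNA, so the effect of transfection itself was not measured. The submitters describe 3 independent samples per group.

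Chemokines are small secreted proteins that draw leukocytes along a gradient. CXCL1, CXCL2, CXCL3, CXCL5 and CXCL8 act on neutrophils through the receptor CXCR2, and CXCL8 also through CXCR1, whereas CCL2 attracts monocytes through CCR2 and CCL20 attracts CCR6-bearing lymphocytes and dendritic cells. In airway epithelium these genes are classic targets of interleukin-1 and NF-kB: IL1A and IL1B bind IL1R1, the signal frees NF-kB from its inhibitors, and NF-kB in turn switches on the chemokines and NFKBIA itself, which closes a feedback loop. Many of these mRNAs are short-lived because of AU-rich letters in their 3' ends. Cyclin K is the partner of CDK12 and CDK13, kinases that phosphorylate RNA polymerase II.

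In GRCh38 the CXC genes form a cluster: CXCL8 lies at chr4:73740506-73743716, CXCL1 at chr4:73869393-73871242, CXCL5 at chr4:73995642-73998779, CXCL3 at chr4:74036589-74038807 and CXCL2 at chr4:74097035-74099293, with CXCL8 and CXCL1 on the plus and the others on the minus strand. IL1A (chr2:112773915-112784590) and IL1B (chr2:112829751-112836903) are neighbours on the minus strand. CCL20 is at chr2:227805739-227817564 and CCL2 at chr17:34255218-34257203, both on the plus strand, and NFKBIA is at chr14:35401511-35404749 on the minus strand.

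The letters at the start sites are given first. The 4 chemokine genes CXCL1, CXCL2, CXCL3 and CXCL5 carried the same NF-kB motif, whose part in their changes was not tested. Promoter sequence was taken from RefSeq (GRCh38.p14), and the 250 bases before each start site were searched on both strands. The kappa B consensus of NF-kB was searched as GGGRNWYYCC (R is A or G, W is A or T, Y is C or T, N is any base). The AP-1 letters were TGANTCA and the TATA box letters TATAAA. The runs below hold 30 bases around the kappa B match, written 5′ to 3′ on the strand of the gene, with the match in capitals. They lie at chr4:73869305-73869334 on the plus strand for CXCL1, and on the minus strand at chr4:74099253-74099282 for CXCL2, chr4:74038748-74038777 for CXCL3 and chr4:73998748-73998777 for CXCL5. The GENCODE 29 records of CXCL2, CXCL3 and CXCL5 begin farther upstream than the RefSeq starts, so that these 3 runs lie before the RefSeq start but inside the GENCODE gene.
CXCL1: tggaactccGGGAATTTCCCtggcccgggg
CXCL2: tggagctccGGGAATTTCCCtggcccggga
CXCL3: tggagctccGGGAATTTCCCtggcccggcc
CXCL5: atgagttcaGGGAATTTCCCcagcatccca

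The capitals read GGGAATTTCCC in all 4 genes, and each holds 2 overlapping matches, 1 on each strand. Their farthest base lay 79 bases before the RefSeq start in CXCL1 and CXCL3, 78 in CXCL2 and 91 in CXCL5. The 120 bases before the start, motif included, were 93.4% identical between CXCL1 and CXCL2 and 90.8% between CXCL1 and CXCL3. They were 88.4% identical between CXCL2 and CXCL3, while CXCL5 shared 49.2% to 51.9% with CXCL1, CXCL2 and CXCL3. A kappa B match was present in 5.21% of the 35116 promoters of the same length. A match is a description of letters, and binding of NF-kB was not measured.

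Longer stretches show what lies around these letters and in other promoters. Those of CXCL1 (chr4:73869273-73869392, plus strand), CCL20 (chr2:227813722-227813841, plus strand) and NFKBIA (chr14:35404750-35404869, minus strand) are the 120 bases before the RefSeq start. The CCL20 gene as measured begins farther upstream, at chr2:227805739, so that its run lies inside the measured gene. For CXCL8 the 80 bases at chr4:73740426-73740505 on the plus strand are shown, since GENCODE 29 places its first exon from there on. Capitals mark matches to the kappa B consensus, AP-1 or the TATA box.
CXCL1: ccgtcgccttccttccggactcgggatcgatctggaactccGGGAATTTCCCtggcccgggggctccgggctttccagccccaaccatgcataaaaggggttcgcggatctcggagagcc
CXCL8: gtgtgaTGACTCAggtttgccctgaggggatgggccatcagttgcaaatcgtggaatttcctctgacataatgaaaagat
CCL20: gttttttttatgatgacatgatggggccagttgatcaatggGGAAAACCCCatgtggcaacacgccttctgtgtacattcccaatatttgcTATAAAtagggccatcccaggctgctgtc
NFKBIA: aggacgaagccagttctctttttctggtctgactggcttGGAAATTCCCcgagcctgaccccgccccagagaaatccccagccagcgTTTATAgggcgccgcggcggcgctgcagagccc

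CCL20 and NFKBIA each had a kappa B match on the opposite strand, with its farthest base 79 and 81 bases before the start. Their TATA box letters began 29 and 33 bases before the start, in NFKBIA on the opposite strand. CXCL8 had an AP-1 match, whose letters match on both strands, 137 bases before the start and a TATA box at 31. The searched window of CXCL8 held no full kappa B match, but its run above holds tggaatttcc, which differs from the consensus in the first letter. IL1A, which has 2 RefSeq starts, had AP-1 matches and no kappa B match, and IL1B had none of the 3 motifs. AP-1 letters were found in 6.57% and TATA box letters in 10.7% of all promoters of this length. RefSeq sequence of the CCL2 promoter was not used here.

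**Figure D1:**
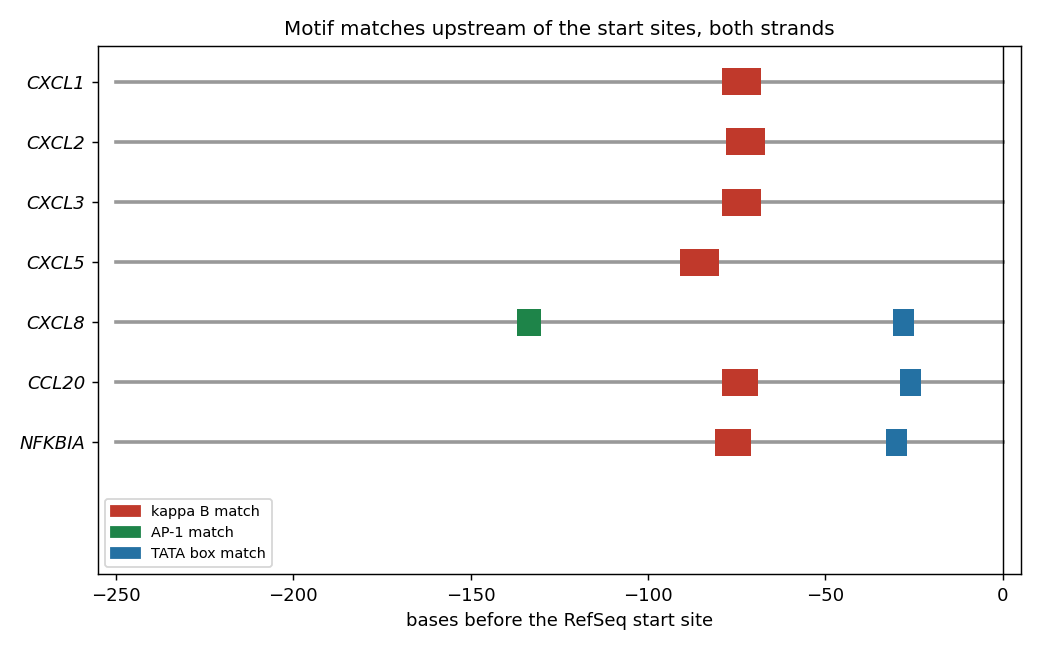
Motif matches in the 250 bases before the RefSeq start site of 7 genes, with the distance from the start in bases on the x axis and 1 line per gene. Red marks kappa B, green AP-1 and blue the TATA box. The full kappa B matches of 6 genes lie between 91 and 68 bases before the start, and CXCL8 has no full match.

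The libraries held 31335892 to 33771068 reads, recovered from the steps of the low FPKM values. FPKM is the fragment count of a gene divided by its exon length and by the depth of the library. CCNK, the target, fell from 7.02 ± 0.107 FPKM (SD, n = 3) in scrambled controls to 0.809 ± 0.0857 after siCyclin K#1 and 0.844 ± 0.0661 after siCyclin K#2, and no library went against its label. Of 6 epithelial markers, KRT8 and KRT18 were at 49.7 to 104.9 FPKM, CDH1 was at 1.19 to 4.60 FPKM, EPCAM and KRT19 stayed below 0.3 FPKM in every library, and KRT7 was not among the symbols. Of 10 leukocyte markers, the defining gene PTPRC did not pass 0.00685 FPKM, CD3E was not listed, and the summed level of the list was 31.5 to 32.6 FPKM in scrambled controls, 33.4 to 36.7 after siCyclin K#1 and 38.4 to 40.7 after siCyclin K#2, mostly from CD68, which many cell types express. Within that list ITGAM rose from 0.801 ± 0.121 to 2.23 ± 0.420 FPKM after siCyclin K#1 (limma adjusted p = 0.000277).

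Of 8 alveolar type II markers in the files 7 stayed below 0.3 FPKM in every library, the listed surfactant genes among them, and the sum of the list was 6.05 to 6.85 FPKM in controls, 11.2 to 11.7 after siCyclin K#1 and 9.28 to 11.1 after siCyclin K#2. It was carried by ABCA3, a lipid transporter, which rose from 6.21 ± 0.477 to 10.96 ± 0.276 and 9.69 ± 0.960 FPKM (limma adjusted p = 4.38e-05 and 0.00032). Of 9 fibroblast and endothelial markers 7 stayed below 0.3 FPKM, and the sum was 5.42 to 6.33 FPKM in controls, 18.4 to 19.6 and 7.55 to 7.65 after the siRNAs, chiefly through the collagen gene COL1A1, which rose from 2.03 ± 0.218 to 14.0 ± 0.572 and 3.19 ± 0.0999 FPKM (limma adjusted p = 5e-08 and 0.000328). The part of these markers in the results below was not tested.

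In scrambled controls, CXCL5 stood far above the other 9 genes. It was at 1387, 1266 and 1315 FPKM in the 3 libraries, a mean of 1323 ± 60.5 (SD, n = 3), and ranked 12 by mean FPKM of the 26129 gene symbols above 0. NFKBIA followed at 25.3 ± 4.89 FPKM and CCL2 at 24.5 ± 1.95, and these did not differ beyond their spread. Then came CXCL1 at 12.2 ± 1.29, CXCL3 at 10.1 ± 1.31 and CXCL2 at 8.06 ± 0.890, with overlap between neighbours in this order. CXCL8 was lower at 2.92 ± 0.205 FPKM, IL1A and CCL20 were at 0.733 ± 0.128 and 0.687 ± 0.191 with overlapping values, and IL1B was at 0.0829 ± 0.0272. FPKM is per length of exon, so these levels can be set side by side between genes. After Cyclin K depletion CXCL5 still ranked first of the 10 genes, and CXCL1 stood second with both siRNAs, overlapping NFKBIA after siCyclin K#1.

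The first question was how each gene differed from scrambled siRNA after siCyclin K#1. All 9 tested genes differed at an adjusted p under 0.05 by limma with Benjamini-Hochberg adjustment over all 20771 genes, 7 lower and 2 higher, where 45.4% of all tested genes differed, 18.3% lower and 27.1% higher. Of the 11245 genes with a mean of at least 1 FPKM, fitted alone, 3252 were lower and 4250 higher. The median log2 difference of the 9 tested genes was -0.83, and that of all tested genes 0.10. By the rule of the study's methods, a fold change over 3 with an unadjusted p under 0.01, CXCL3, CXCL5 and CCL2 were lower, where 4.65% of all tested genes passed that rule. In all 9 genes the 3 libraries lay wholly above or wholly below the 3 controls, as they did in 54.0% of all tested genes.

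After siCyclin K#2, 6 of the 9 genes differed from scrambled siRNA, 5 lower and 1 higher, where 35.5% of all tested genes differed, 15.4% lower and 20.1% higher. Of the 11245 genes with a mean of at least 1 FPKM, fitted alone, 2739 were lower and 3699 higher. The median log2 difference of the 9 genes was -0.51, and that of all tested genes 0.02. None of the 9 passed a fold change over 3 with p under 0.01, which 1.91% of all tested genes did, and the 6 genes named by the adjusted p were CXCL1, CXCL2, CXCL3, CXCL5, CCL2 and NFKBIA. The libraries lay wholly on one side of the controls in 6 of the 9 genes, where this held for 47.3% of all tested genes. Both comparisons share the same 3 scrambled libraries, so they are not independent of each other. In bulk RNA, fewer cells making an mRNA and less of it per cell cannot be told apart.

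CXCL5, the most abundant of the 10 mRNAs, had the largest log2 drop of the 9 tested genes in both comparisons. Its level was 147, 175 and 163 FPKM after siCyclin K#1, and 483, 637 and 559 FPKM after siCyclin K#2, so no library of either siRNA came near the 1266 FPKM of the lowest scrambled library. The mean was 12.2% of scrambled after siCyclin K#1 and 42.3% after siCyclin K#2. On the log2(FPKM + 0.1) scale CXCL5 fell by 3.03 (SE 0.10, limma adjusted p = 7.6e-08) after siCyclin K#1 and by 1.25 (SE 0.10, limma adjusted p = 1.94e-05) after siCyclin K#2. Its place by mean FPKM went from 12 to 113 and 23.

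The depth behind these values was high. CXCL5 had 102342 to 118849 reads per scrambled library, 12101 to 13903 after siCyclin K#1 and 39400 to 53701 after siCyclin K#2.

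CXCL3, another neutrophil attractant, fell with both siRNAs. It was at 10.7, 8.58 and 10.96 FPKM in scrambled controls, 2.92, 3.01 and 2.78 after siCyclin K#1, and 6.34, 8.74 and 6.18 after siCyclin K#2. The 3 libraries of siCyclin K#1 lay closely together far below the controls, while the second library of siCyclin K#2 lay above the lowest scrambled library. CXCL3 fell by 1.75 on the log2 scale (SE 0.14, limma adjusted p = 1.23e-05) after siCyclin K#1 and by 0.51 (SE 0.14, limma adjusted p = 0.0208) after siCyclin K#2. The second call was lost, at limma adjusted p values of 0.0697 to 0.0725, without scrambled library 1 or 3 or without siCyclin K#2 library 1 or 3, and at 0.0514 when only these 2 groups were fitted.

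CXCL2, the close relative of both, was lower by about the same amount with either siRNA. Its scrambled libraries held 9.08, 7.49 and 7.60 FPKM, those of siCyclin K#1 5.40, 6.07 and 5.48, and those of siCyclin K#2 5.40, 5.44 and 5.00. Neither siRNA group overlapped the controls. The log2 difference was -0.50 (SE 0.09, limma adjusted p = 0.00126) after siCyclin K#1 and -0.60 (SE 0.09, limma adjusted p = 0.000651) after siCyclin K#2.

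CXCL1, whose promoter and coding sequence are close to those of CXCL2 and CXCL3, moved the other way. It rose from 12.4, 10.9 and 13.4 FPKM in the scrambled libraries to 15.5, 16.6 and 17.7 after siCyclin K#1 and to 22.3, 26.1 and 24.2 after siCyclin K#2. The 3 groups did not overlap, with scrambled lowest and siCyclin K#2 highest. The mean was 1.36 times scrambled after siCyclin K#1 and 1.98 times after siCyclin K#2, and the log2 differences were 0.44 (SE 0.09, limma adjusted p = 0.00331) and 0.98 (SE 0.09, limma adjusted p = 4.41e-05).

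**Figure D2:**
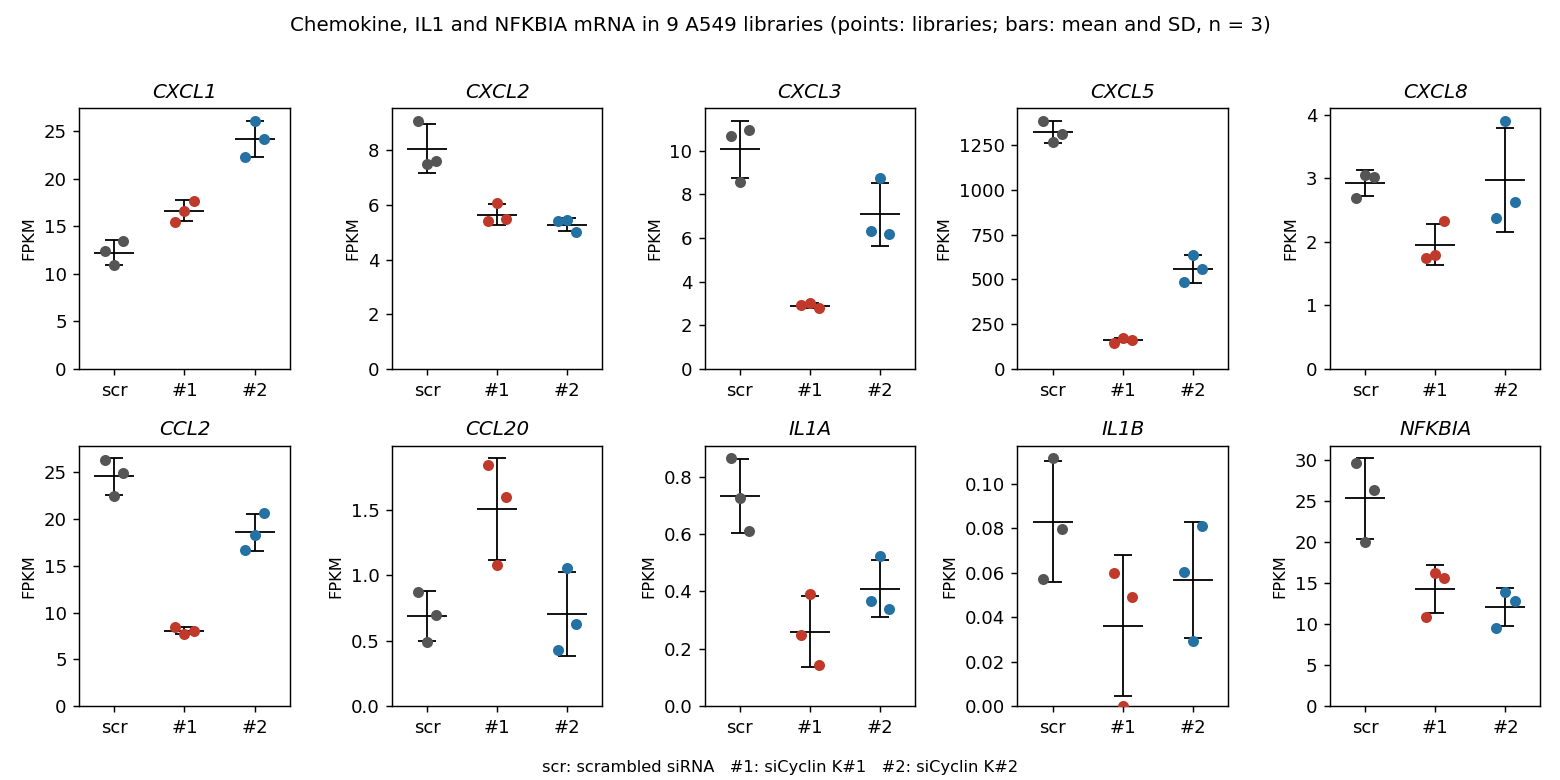
FPKM of the 10 genes in each of the 9 libraries, with an axis from 0 in each panel, points for libraries, and bars for the mean and SD (n = 3). CXCL5, CXCL3 and CCL2 are lowest after siCyclin K#1 and between the others after siCyclin K#2, except for 1 CXCL3 library, whereas CXCL1 is highest after siCyclin K#2.

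The make-up of the CXCL1, CXCL2 and CXCL3 mRNA shifted accordingly. The summed level of the 3 genes was 30.4 ± 2.96 FPKM in scrambled controls, 25.2 ± 1.17 after siCyclin K#1 and 36.6 ± 3.28 after siCyclin K#2 (SD, n = 3 each). CXCL1 made up 38.5%, 40.4% and 42.0% of this sum in the scrambled libraries, 65.0%, 64.7% and 68.2% after siCyclin K#1, and 65.5%, 64.8% and 68.4% after siCyclin K#2. The 6 libraries of the siRNAs against CCNK lay between 64.7% and 68.4% and did not overlap the controls. CXCL1 and CXCL3 themselves were at different levels with the 2 siRNAs, while the CXCL2 values overlapped. The share of CXCL1 is given as a description, since an exact permutation test of 3 against 3 libraries cannot go below p = 0.1.

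**Figure D3:**
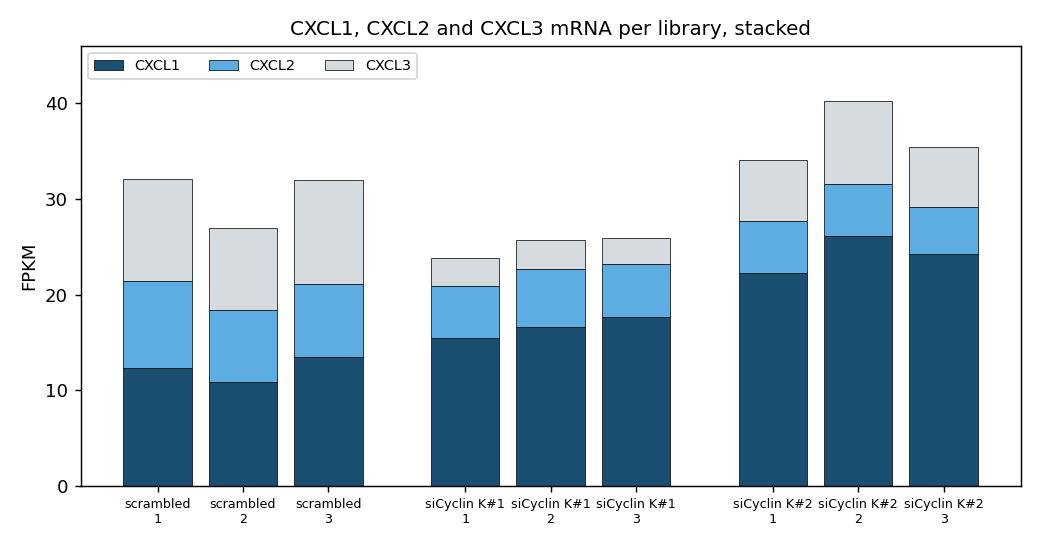
Stacked FPKM of CXCL1 (dark blue), CXCL2 (light blue) and CXCL3 (grey) in each of the 9 libraries, with FPKM on the y axis. CXCL1 fills 38.5% to 42.0% of a bar in scrambled controls and 64.7% to 68.4% with either siRNA against CCNK.

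Reads of near-identical genes can be assigned to the wrong copy. The coding sequences were 93.5% identical between CXCL1 and CXCL2, 90.7% between CXCL1 and CXCL3 and 94.4% between CXCL2 and CXCL3, against 59.8% to 61.4% with CXCL5. Of all 50-base windows in the longest coding transcript, 5.73% for CXCL1, 9.24% for CXCL2 and 5.26% for CXCL3 were shared with another of the 5 CXC genes, and no window of 100 or 150 bases was. How the authors' pipeline treated reads that fit several places was not given in the sources used here.

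CXCL8, the gene of interleukin-8, stayed low. It had 2.68, 3.05 and 3.02 FPKM in scrambled controls, 1.74, 1.80 and 2.34 after siCyclin K#1, and 2.38, 3.91 and 2.62 after siCyclin K#2. The siCyclin K#1 libraries all lay below the controls, and those of siCyclin K#2 lay on both sides of them. The log2 difference after siCyclin K#1 was -0.56 (SE 0.18, limma adjusted p = 0.0343), and this call was lost in 6 of the 21 alternative analyses, with limma adjusted p up to 0.104, 5 of which left out 1 library (scrambled 1, 2 or 3, or siCyclin K#1 1 or 2). After siCyclin K#2 the difference was -0.01, with a 95% interval from -0.43 to 0.41 (limma adjusted p = 0.993), so a change of that size in either direction was not resolved.

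Of the CC chemokines, CCL2 fell with both siRNAs. The monocyte attractant was at 26.2, 22.4 and 24.9 FPKM in scrambled controls, 8.45, 7.68 and 8.05 after siCyclin K#1, and 16.7, 18.3 and 20.7 after siCyclin K#2. The 3 groups did not overlap, and the siCyclin K#2 libraries lay between the others. CCL2 fell by 1.59 on the log2 scale (SE 0.09, limma adjusted p = 1.16e-06) after siCyclin K#1 and by 0.40 (SE 0.09, limma adjusted p = 0.00618) after siCyclin K#2.

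CCL20 was near the lower end of what the libraries resolved, with 22 to 95 reads each. It had 0.873, 0.493 and 0.696 FPKM in scrambled controls, 1.84, 1.08 and 1.60 after siCyclin K#1, and 0.429, 1.06 and 0.630 after siCyclin K#2. All siCyclin K#1 libraries lay above all others, though the lowest of them only just above the highest of siCyclin K#2. The log2 difference was 1.03 after siCyclin K#1 (SE 0.32, limma adjusted p = 0.0274) and -0.01 after siCyclin K#2 (95% interval -0.74 to 0.72, limma adjusted p = 0.991). The call after siCyclin K#1 was lost in 6 of 20 alternatives: with quantile normalization (limma adjusted p = 0.0616), with the replicate number as a block (0.0607), and without scrambled library 2 or 3 or siCyclin K#1 library 1 or 3 (0.06 to 0.0921).

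The interleukin-1 cytokines were scarce in these cells. IL1A, the alarmin form, had 0.864, 0.724 and 0.610 FPKM in scrambled controls, 0.247, 0.391 and 0.143 after siCyclin K#1, and 0.366, 0.525 and 0.340 after siCyclin K#2, from 10 to 62 reads per library. Every library of both siRNAs lay below every control. The log2 difference was -1.26 (SE 0.28, limma adjusted p = 0.00526) after siCyclin K#1, and -0.71 (SE 0.28, 95% interval -1.34 to -0.08) after siCyclin K#2, where the limma adjusted p of 0.0787 missed the threshold. That p was 0.0466 with the replicate block, and it was under 0.05 in 6 of 20 alternatives, among them without siCyclin K#1 library 2 or 3 (0.0456 and 0.0426), which moves the shared spread estimate alone.

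IL1B, the form cleaved by caspase-1, was not tested because it rarely reached 0.1 FPKM. It had 6 to 11 reads per scrambled library, 0 to 6 after siCyclin K#1 and 3 to 8 after siCyclin K#2, and the groups overlapped. In the library with 0 reads, a count of 0 allows up to 3 reads, or 0.0309 FPKM, by counting error only. Tested without a filter, the log2 differences were -0.44 and -0.22 with limma adjusted p of 0.229 and 0.598.

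NFKBIA, the inhibitor of NF-kB and its direct target, fell with both siRNAs. It was at 29.6, 19.98 and 26.3 FPKM in scrambled controls, 10.9, 16.2 and 15.7 after siCyclin K#1, and 9.48, 13.9 and 12.8 after siCyclin K#2. The libraries varied more than those of the other abundant genes, but none of either siRNA reached the lowest control. The log2 difference was -0.83 (SE 0.21, limma adjusted p = 0.0103) after siCyclin K#1 and -1.06 (SE 0.21, limma adjusted p = 0.00371) after siCyclin K#2.

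The next comparison set the 2 siRNAs against each other, although CCNK itself differed by -0.06 on the log2 scale between them (95% interval -0.28 to 0.17, limma adjusted p = 0.723). Of the 9 tested genes 5 differed between siCyclin K#1 and siCyclin K#2, 4 lower after siCyclin K#1 and 1 higher, where 29.9% of all tested genes differed, 12.5% lower and 17.4% higher. Of the 11245 genes with a mean of at least 1 FPKM, fitted alone, 2547 were lower after siCyclin K#1 and 2931 higher. The 9 genes had a median of -0.54 and all tested genes 0.08. The libraries of the 2 siRNAs did not overlap in 6 of the 9 genes, where this held for 43.2% of all tested genes. CXCL5 was lower after siCyclin K#1 by 1.79 on the log2 scale, which is also past a fold change of 3 with p under 0.01, as were 1.5% of all tested genes.

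CXCL5 had a siCyclin K#1 minus siCyclin K#2 difference of -1.79 (SE 0.10, limma adjusted p = 4.37e-06). CXCL3 followed with -1.24 (SE 0.14, limma adjusted p = 0.00024), CCL2 with -1.19 (SE 0.09, limma adjusted p = 1.87e-05) and CXCL1 with -0.54 (SE 0.09, limma adjusted p = 0.00198). CCL20 was higher after siCyclin K#1 by 1.04 (SE 0.32, limma adjusted p = 0.0381), a call that was lost in 11 of 20 alternatives, among them the replicate block (0.0816) and leaving out scrambled library 3, siCyclin K#1 library 1 or 3, or siCyclin K#2 library 1 or 3 (0.0561 to 0.116). The other 4 genes missed the threshold. Their intervals were -0.10 to 0.29 for CXCL2, -0.98 to -0.14 for CXCL8 with a limma adjusted p of 0.0508, -1.17 to 0.09 for IL1A and -0.24 to 0.71 for NFKBIA, so differences of these sizes between the siRNAs remain possible. For CXCL8 the limma adjusted p was 0.0365 without siCyclin K#1 library 3 and 0.0312 without siCyclin K#2 library 1.

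**Figure D4:**
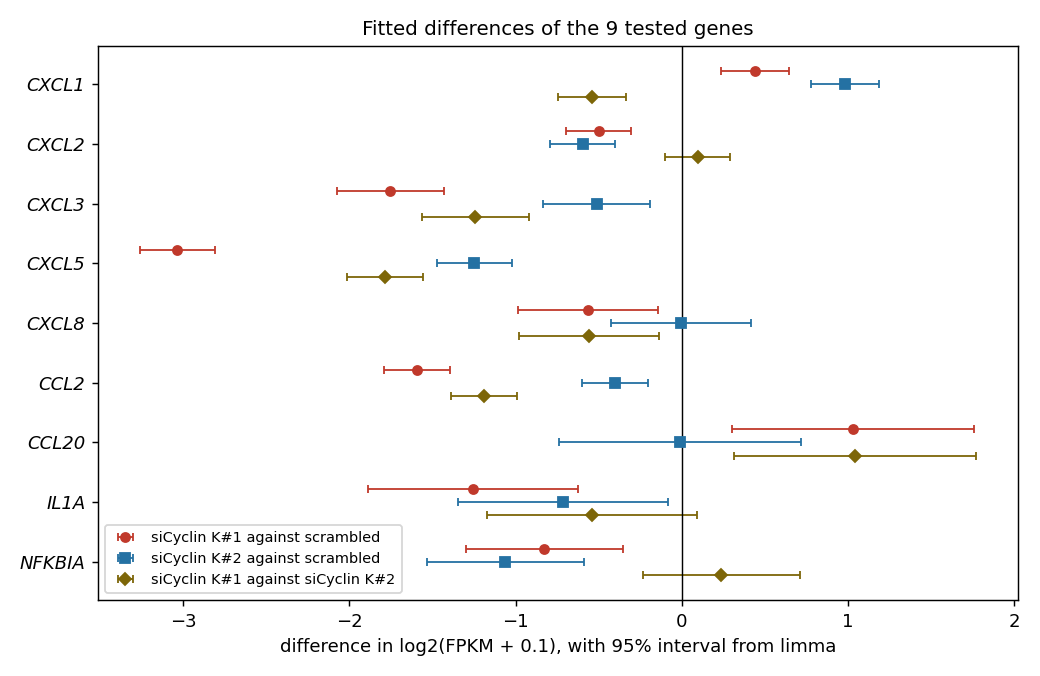
Fitted difference in log2(FPKM + 0.1) of the 9 tested genes with the 95% interval from limma, for siCyclin K#1 against scrambled (red circles), siCyclin K#2 against scrambled (blue squares) and siCyclin K#1 against siCyclin K#2 (ochre diamonds). CXCL5 lies farthest to the left with -3.03, and CXCL1 and CCL20 are the genes with a called difference to the right of 0 against scrambled siRNA.

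As a total, the mRNA of the 7 chemokines was dominated by CXCL5. The sum was 1381 ± 64.9 FPKM in scrambled controls, 198 ± 14.1 after siCyclin K#1 and 618.5 ± 82.1 after siCyclin K#2 (SD, n = 3 each), and CXCL5 made up 95.8%, 81.4% and 90.5% of it. Without CXCL5 the sum was 58.5 ± 4.90, 36.7 ± 1.10 and 58.8 ± 5.03 FPKM. The other 6 genes together were thus at 58.8 FPKM after siCyclin K#2 beside 58.5 FPKM in the controls, with overlapping libraries.

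All 10 genes are short and hold the AU-rich letters ATTTA, and all but CCL2 hold the longer TATTTAT. The choice of members did not use these traits. They span 1850 to 11826 bases. The heptamer TATTTAT was present in the 3' UTR of 9 of the 10 genes, against 27.7% of 18844 genes with a 3' UTR and 24.6% of the 8487 genes whose 3' UTR is as long as the members' (376 to 1995 bases). The pentamer ATTTA occurred 2.66 (CCL2) to 13.9 (CXCL2) times per 1000 bases, where the median of genes in that length range was 1.61. CXCL2 had 8 TATTTAT matches, CXCL1 had 4 and CCL2 had 0. The part of these letters in the changes of the 10 genes was not tested.

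Short and longer genes, split at the span of the longest of the 10 genes, differed in their direction of change. Features that join several genes were left out. Among genes with a mean of at least 1 FPKM, 35.7% of the 2862 that span no more than the longest of the 10 genes were lower after siCyclin K#1 and 24.6% were higher, against 24.7% and 41.4% of 7483 longer genes. After siCyclin K#2 the shares were 30.8% lower and 19.6% higher of the short genes, and 19.2% and 36.2% of the longer ones. The part of span in the changes of the 10 genes was not tested.

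The genes of the NF-kB pathway itself moved in both directions. Each list count below is to be read beside the shares of all tested genes, which were 18.3% lower and 27.1% higher after siCyclin K#1, and 15.4% lower and 20.1% higher after siCyclin K#2. Of 11 subunits and kinases, all tested, 4 were lower and 2 higher after siCyclin K#1, and 4 lower and 2 higher after siCyclin K#2. The medians were 0.09 and -0.25. NFKB2, which encodes p100, the precursor of the p52 subunit, fell from 73.9 ± 1.52 FPKM to 20.6 ± 1.20 after siCyclin K#1 and 28.6 ± 2.14 after siCyclin K#2, log2 differences of -1.84 and -1.37 (limma adjusted p = 8.55e-08 and 8.7e-07). RELB, the partner of p52, fell by 0.69 and 0.93 on the log2 scale (limma adjusted p = 0.0162 and 0.00462). MAP3K14, the kinase that starts this non-canonical branch, fell by 0.99 after siCyclin K#1 (limma adjusted p = 0.00242) and had -0.32 after siCyclin K#2 (limma adjusted p = 0.238). The joined feature of CHUK, an IkB kinase, and ERLIN1 was higher by 0.76 and 0.65 (limma adjusted p = 7.37e-07 and 3.6e-06), and its reads cannot be given to either gene. IKBKE, a related kinase, was at 0.32 (limma adjusted p = 0.0504) and 0.44 (limma adjusted p = 0.017).

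Further IkB genes and other regulators of NF-kB, NFKBIA left out, went in both directions. Of 12 tested, 3 were lower and 4 higher after siCyclin K#1, and 4 lower and 4 higher after siCyclin K#2. NFKBIE, which encodes the inhibitor IkB epsilon, fell from 14.6 ± 1.03 FPKM to 3.52 ± 0.816 and 5.78 ± 0.560, by 2.04 and 1.32 on the log2 scale (limma adjusted p = 5.99e-06 and 0.000138). NFKBIB, the gene of IkB beta, rose from 6.61 ± 0.778 FPKM to 15.5 ± 3.67 and 18.9 ± 3.49 (log2 differences 1.20 and 1.5, limma adjusted p = 0.000587 and 0.000236). Of the 3 classical IkB genes, NFKBIA and NFKBIE were lower and NFKBIB was higher with both siRNAs.

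NFKBIZ, BCL3 and TNIP1 also rose. NFKBIZ, a nuclear IkB protein, was at 1.31 ± 0.0763 FPKM in scrambled controls, 5.35 ± 1.51 after siCyclin K#1 and 2.67 ± 0.258 after siCyclin K#2, log2 differences of 1.91 and 0.97 (limma adjusted p = 4.56e-05 and 0.00384). BCL3, another nuclear member, rose by 1.45 and 0.80 (limma adjusted p = 1.42e-07 and 7.92e-06). TNIP1, which binds the ubiquitin editor A20, rose by 1.04 and 1.27 (limma adjusted p = 2.1e-06 and 1.38e-06).

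Other NF-kB target genes were tested next. Of 24, 13 were lower and 6 higher after siCyclin K#1, and 13 lower and 2 higher after siCyclin K#2, with medians of -0.55 and -0.60, where 18.3% and 15.4% of all tested genes were lower and 27.1% and 20.1% higher. TRAF1, an adaptor of TNF receptors, fell from 3.37 ± 0.508 FPKM to 0.757 ± 0.0746 and 1.65 ± 0.0316 (log2 differences -2.01 and -0.97, limma adjusted p = 2.34e-06 and 0.000308). PTX3, a soluble pattern receptor, fell by 1.67 and 0.81 (limma adjusted p = 2.47e-05 and 0.00298), and the survival genes BCL2A1 and BIRC3 fell by 1.55 and 1.41 after siCyclin K#1 (limma adjusted p = 3.81e-05 and 1.86e-05) and by 0.70 and 0.82 after siCyclin K#2 (limma adjusted p = 0.00612 and 0.000809). PTGS2, the inducible cyclooxygenase, went the other way, from 0.992 ± 0.0382 FPKM to 4.05 ± 0.851 and 3.44 ± 0.403 (log2 differences 1.91 and 1.69, limma adjusted p = 8.84e-06 and 3.19e-05).

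**Figure D5:**
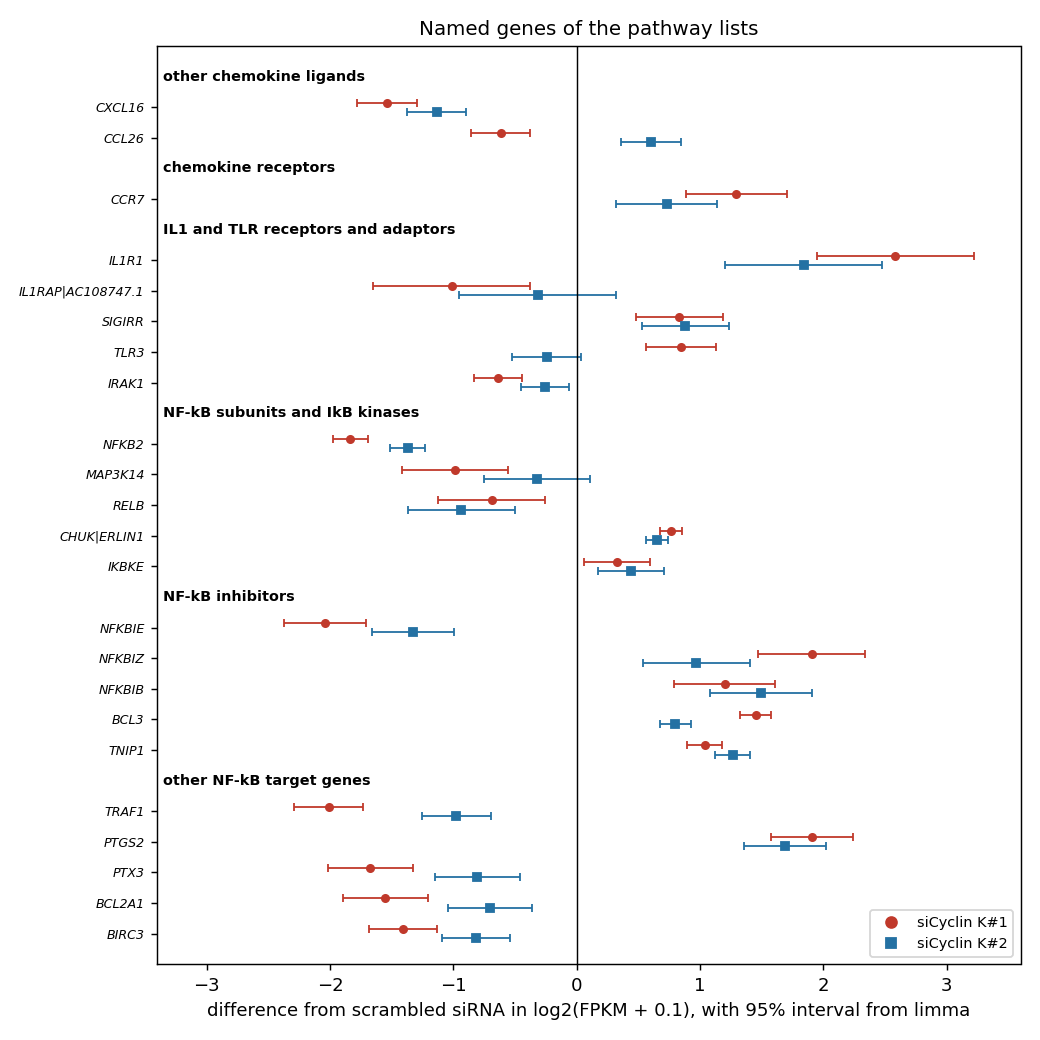
Differences from scrambled siRNA in log2(FPKM + 0.1) with 95% intervals from limma, for the genes of 6 pathway lists picked by size of change (red circles siCyclin K#1, blue squares siCyclin K#2). IL1R1, NFKBIZ, NFKBIB, BCL3, TNIP1 and PTGS2 lie to the right of 0 with both siRNAs, and NFKB2, NFKBIE, TRAF1 and BIRC3 to the left. The list labelled NF-kB inhibitors also holds the nuclear IkB genes NFKBIZ and BCL3.

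Upstream of NF-kB, 19 receptors and adaptors of the IL1, Toll-like and TNF receptor families were tested, with TNFRSF1A, TRADD, RIPK1 and TRAF2 among them. After siCyclin K#1 7 were higher and 5 lower, and after siCyclin K#2 5 were higher and 3 lower. IL1R1, the signalling receptor of IL1A and IL1B, rose with both siRNAs. It was at 0.961, 1.15 and 2.47 FPKM in scrambled controls, 9.04, 8.45 and 9.37 after siCyclin K#1, and 4.83, 5.82 and 5.31 after siCyclin K#2. The groups did not overlap, and the log2 differences were 2.59 (SE 0.28, limma adjusted p = 7.63e-05) and 1.84 (SE 0.28, limma adjusted p = 0.000915).

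Other genes of this list changed less. SIGIRR, which dampens IL1 and Toll-like signals, rose by 0.83 and 0.88 (limma adjusted p = 0.00202 and 0.00208). IRAK1, a kinase of the same receptors, fell by 0.64 and 0.26 (limma adjusted p = 0.000279 and 0.0439). TLR3, a sensor of double-stranded RNA, rose by 0.85 after siCyclin K#1 (limma adjusted p = 0.000504) and had -0.24 after siCyclin K#2 (limma adjusted p = 0.171). The feature that joins IL1RAP, the co-receptor, with a neighbouring gene had -1.01 (limma adjusted p = 0.0162) and -0.31 (limma adjusted p = 0.439).

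Other chemokines were mostly below the level needed for testing. Of 28 further ligands 12 were in the files and 5 were tested: 1 was higher and 2 lower after siCyclin K#1, and 2 higher and 1 lower after siCyclin K#2. CXCL16, a membrane-bound chemokine, fell from 7.08 ± 0.506 FPKM to 2.38 ± 0.270 and 3.18 ± 0.314 (log2 differences -1.54 and -1.13, limma adjusted p = 4.65e-06 and 4.98e-05). CCL26, an eosinophil attractant, had -0.62 after siCyclin K#1 and 0.60 after siCyclin K#2 (limma adjusted p = 0.00132 and 0.00203), and the 2 siRNAs differed by -1.22 (limma adjusted p = 5.06e-05).

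The receptors of the 7 chemokines were low or not listed. CXCR2 was listed at 0 in all libraries but 1 and at 0.0751 FPKM there, CXCR1 and CCR2 were not among the symbols, and CCR6 was listed only in a feature joined with FGFR1OP, at 0.331 to 0.718 FPKM, whose reads cannot be given to either gene. Of 6 chemokine receptors tested, that joined feature included, 2 were higher and 1 lower with either siRNA, beside the same shares of all tested genes. CCR7, the lymph node homing receptor, rose from 1.35 ± 0.327 FPKM to 3.42 ± 0.401 and 2.28 ± 0.310 (log2 differences 1.3 and 0.73, limma adjusted p = 0.000367 and 0.0124).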

How the data were processed

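RNA of 9 A549 libraries was analysed, with groups and replicate numbers from the sample labels. The authors deposited FPKM per feature and library, made with StringTie 1.3.3b according to the submitters' processing notes. The aligner was not given in the sources used here. Of 27835 Ensembl features found in GENCODE 29, 27417 had identical coordinates. Rows with the same symbol were summed. Of 56252 features, 25125 carried no reference gene and were not used. A gene was tested if 3 or more libraries had 0.1 FPKM or more. The scale of the test was log2(FPKM + 0.1), which understates changes of low genes. The tool was limma 3.58.1 in R 4.3.3 (eBayes with trend, 3 groups sharing a spread estimate, two-sided) and Benjamini-Hochberg adjustment. The test was run on simulated data first. Levels are mean ± SD. P-values measure the spread between these libraries.

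Reads per library were recovered with the exon lengths of GENCODE 29: 96.2% to 96.5% of values under 50 reads came out whole within 0.05 of a read. Replicates differed beyond counting noise, at a chi-square of 3.49 to 4.08 per degree of freedom, so none was a copy. Intervals and floors cover counting error only.

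The 10 genes and the pathway lists were chosen with earlier results of these data known. From each list the text names at most 5 genes with adjusted p under 0.05 against scrambled siRNA, a mean of at least 1 FPKM and the largest absolute log2 difference. Percent identity is over the aligned length (Biopython 1.88).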

Additional observations from a re-analysis of the deposited data

Results flagged for a closer look

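Of the 9 tested genes, 5 differed between siCyclin K#1 and siCyclin K#2 in a direct test of that difference, where 29.9% of all tested genes did. In the fit of the 11245 genes with a mean of at least 1 FPKM, 2931 were higher and 2547 lower. The siCyclin K#1 minus siCyclin K#2 differences on the log2 scale were -0.54 for CXCL1, -1.24 for CXCL3, -1.79 for CXCL5, -1.19 for CCL2 and 1.04 for CCL20, which rests on few reads. CXCL1 was the gene with a rise against scrambled siRNA that was larger after siCyclin K#2, while CXCL3, CXCL5 and CCL2 had the larger drop after siCyclin K#1. With 3 libraries per group no library was tested for standing apart.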

How the results depend on the processing

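Each result was recomputed under up to 21 alternatives, and 511 of 561 values kept their direction and their side of the threshold. By a fold change over 3 with an unadjusted p under 0.01 the counts were 3 genes after siCyclin K#1, 0 after siCyclin K#2 and 1 between the siRNAs; without a library in turn the counts by adjusted p were 7 to 9, 5 to 7 and 4 to 5. The near-zero differences of 2 genes after siCyclin K#2 changed sign: CXCL8 was at 0.00 with a pseudocount of 1 and between -0.21 and 0.13 without a library, and CCL20 at 0.01 and between -0.31 and 0.25. CXCL1, CXCL2, CXCL5, CCL2 and NFKBIA kept their calls against scrambled siRNA in every alternative run, limma-voom on the recovered reads included, which was added after seeing the data, as was summing the rows of a reference gene.

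Deviations of same-numbered libraries from their group means correlated at -0.07 to 0.04 (9 pairs over 11245 genes). This does not show whether such libraries had more than a number in common. With the replicate block 8, 7 and 4 of the genes differed in the 3 comparisons.

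The median of all genes after siCyclin K#1 moved from 0.10 to 0.00 with median-ratio rescaling and -0.01 with quantile normalization, and of the calls 59.8% were higher before, 49.8% and 50.3% after. Between the siRNAs these shares were 58.2%, 46.9% and 52.2%. Depth limited IL1B, IL1A and CCL20.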

Other observations

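For 11245 genes with a mean of at least 1 FPKM, log2 deviations from the mean of the scrambled libraries were taken over the 9 libraries. By root mean square difference of these deviations, 5 genes followed CXCL5 most closely: DCP2 (0.27), CCDC85B (0.33), MSMO1 (0.33), LINC01468 (0.34) and IGFN1 (0.34). DCP2, which encodes the mRNA decapping enzyme, went from 9.53 FPKM in scrambled controls to 1.12 after siCyclin K#1 and 3.01 after siCyclin K#2. MSMO1, an enzyme of cholesterol synthesis, went from 37.2 to 6.25 and 16.1 FPKM. These are descriptions with no test.

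The neighbours of the gene clusters on chromosomes 4 and 2 did not share a direction. For this and the next lists, 27.1% of all tested genes were higher and 18.3% lower after siCyclin K#1, and 20.1% and 15.4% after siCyclin K#2. Of 13 neighbours tested, 3 were higher and 4 lower after siCyclin K#1, and 3 higher and 1 lower after siCyclin K#2. AREG and EREG, the epidermal growth factor ligands that lie near the CXC genes, differed from each other: AREG rose from 4.10 ± 0.337 FPKM (SD, n = 3) to 11.7 ± 1.01 and 12.9 ± 1.49 (limma adjusted p = 4.96e-06 and 5.56e-06), whereas EREG fell from 7.56 ± 0.253 to 2.27 ± 0.189 after siCyclin K#1 (limma adjusted p = 1.35e-05) and rose to 12.8 ± 2.64 after siCyclin K#2 (limma adjusted p = 0.00336). SLC20A1, a phosphate transporter next to the IL1 genes, likewise had -0.72 and 0.35 on the log2 scale (limma adjusted p = 8.17e-06 and 0.000998).

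Of 12 genes that bind AU-rich letters or act in mRNA decay, 2 were higher and 3 lower after siCyclin K#1, and 0 higher and 4 lower after siCyclin K#2. RC3H2, a roquin paralog, fell from 8.57 ± 0.116 FPKM to 3.04 ± 0.282 and 6.13 ± 0.136 (limma adjusted p = 4.58e-07 and 0.000607). ZFP36L1, which promotes decay of AU-rich mRNAs, rose from 28.4 ± 0.920 to 47.8 ± 1.67 FPKM after siCyclin K#1 and was at 25.7 ± 0.747 after siCyclin K#2 (limma adjusted p = 1.18e-06 and 0.0261).

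Of 15 interferon-stimulated genes tested, 5 were higher and 6 lower after siCyclin K#1, and 3 higher and 6 lower after siCyclin K#2. IFIT3 and ISG15 fell with both siRNAs, IFIT3 by 0.71 and 0.74 (limma adjusted p = 3.12e-05 and 3.89e-05) and ISG15 by 0.57 and 0.60 (limma adjusted p = 2.99e-05 and 3.91e-05). IRF7 rose by 0.43 and 0.87 (limma adjusted p = 0.0179 and 0.000517). Of 6 other genes of the IL1 family and its processing, 1 was higher and 2 lower after siCyclin K#1, and 1 higher and 3 lower after siCyclin K#2, and GSDMD, which forms the pore through which IL1B leaves the cell, rose from 1.89 ± 0.0849 FPKM to 4.01 ± 0.122 and 2.75 ± 0.0534 (limma adjusted p = 2.35e-06 and 0.000272).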
